A study of Arabidopsis thaliana with 8 samples.

Results

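The WRKY transcription factor genes of the model plant Arabidopsis thaliana were followed in shoots of submerged and non-submerged plants of 2 ages. The members were the loci of a list of named WRKY genes between WRKY1 and WRKY75, which does not hold every number, and all 59 listed loci were found among the 27826 loci of the deposited expression table. Their symbols in the RefSeq gene table carried the same WRKY numbers as name or synonym, with WRKY1 also called ZAP1, WRKY16 TTR1 and WRKY44 TTG2. Expression was measured on 8 Affymetrix arrays, each with biotin-labelled total RNA of 1 sample, in 4 groups of 2 samples. Submerged juvenile plants were 2 weeks old and spent 24 h under water in darkness; juvenile control plants of that age spent 24 h in dark tanks without water. Submerged adult plants were 3 weeks old and had the same dark submergence, and adult control plants had the same dark air treatment. All groups were grown on soil under a 12 h photoperiod and entered treatment when the light phase ended, so by these labels all 8 samples had been in darkness. The sample titles call the submerged samples dark and the others ctrl, without naming the water, and the groups here follow the source names, treatment labels and descriptions. The labels give no genotype and do not say how many plants a sample pooled or whether the 2 samples of a group came from separate plants, so p-values measure the spread between these samples, which may be technical. Whole shoots were sampled, so fewer cells of a type and less RNA per cell cannot be told apart.

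WRKY factors are plant transcription factors that bind DNA through a conserved domain, named after its amino acids W, R, K and Y, which recognises short promoter elements called W boxes. Many WRKY genes carry W boxes themselves and act on each other, and several are phosphorylated by MAP kinase cascades or bound by small VQ-motif proteins. They are best known in leaves as regulators of immunity, salicylic acid and jasmonic acid signalling and senescence, and some act in phosphate supply, abscisic acid responses, flowering and seed or trichome development. The family is divided by its domains into group I, with a pair of WRKY domains in most members, groups IIa to IIe and group III. Members are described below by these groups and by their known roles.

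All values are on the log2 scale as deposited, so a difference of 1 is a 2-fold change. Array medians lay between 6.13 and 6.30, and submerged juvenile arrays had medians 0.13 above their controls, against shifts of -0.03 for submerged adult over adult control arrays, 0.06 for adult over juvenile control arrays and -0.11 for submerged adult over submerged juvenile arrays. The green shoot markers RBCS1A, CAB3 and RBCS3B, which encode the Rubisco small subunit and a light-harvesting protein, lay between 7.02 and 12.84 on all arrays, while LHCB1.1, a near-identical copy of CAB3, lay between 2.92 and 4.40. RBCS1A, CAB3 and RBCS3B were lower under water than in their controls at both ages. LHCB1.1 was higher under water in juvenile plants and overlapped its controls in adult plants. Of 4 root markers, COBL9, EXPA7 and PRP3 lay between 2.45 and 4.22, and PYK10 lay between 7.42 and 10.74. The mean of the 4 root markers was 4.62 and 4.71 on submerged juvenile arrays against 5.11 and 5.16 on their controls, and 4.20 and 4.33 on submerged adult arrays against 5.02 and 5.07. PYK10 had the widest gaps, with means of 9.46 against 10.59 in juvenile and 7.66 against 9.87 in adult plants. PRP3 was also lower under water at both ages, and COBL9 in adult plants only. EXPA7 overlapped in juvenile plants and was higher under water in adult plants (3.39 and 3.49 against 3.34 and 3.08). The phloem marker SUC2 ranged from 9.80 to 10.42, and the mean of the guard cell markers FAMA and MYB60 from 6.22 to 7.24, with the submerged arrays below their controls at both ages. Taken singly, MYB60 overlapped its controls at both ages, with means of 4.71 against 5.14 in juvenile and 4.97 against 4.84 in adult plants. The part of these shifts in the WRKY values was not tested. The 2 arrays of a group differed at least 2-fold for 3 of 59 WRKY genes in submerged juvenile plants, 0 in juvenile controls, 0 in submerged adult plants and 2 in adult controls. Over all genes these shares were 2.21%, 0.776%, 1.83% and 0.978%.

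Submergence raised most WRKY genes at both ages. In juvenile plants 34 of 59 rose and 4 fell, where a gene is called as changed at a limma p under 0.05 after Benjamini-Hochberg adjustment over all 27826 loci. Over all genes 34.2% were called, 15.5% as higher and 18.8% as lower, against 64.4%, 57.6% and 6.78% of the WRKY genes. When 1 array was left out, the falls numbered from 2 (without either submerged juvenile array or without juvenile control replicate 2) to 6, and the rises from 33 to 35. In adult plants 34 rose and 5 fell, or 57.6% and 8.47%, against 14.6% and 18.9% of all genes (33.6% called in either direction). The adult falls then numbered from 3 (without adult control replicate 2) to 6, and the rises from 32 to 36. The median change of the 59 genes was 1.00 at each age, where the median over all genes was -0.05 in juvenile and -0.02 in adult plants. Rises of at least 2-fold were called for 29 members in juvenile plants and 30 in adult plants, against 9.6% and 8.57% of all genes, and WRKY13 was the single member with a called fall of that size at each age (1.69% of members, against 7.67% and 8.15% of all genes). After each array was centred on its median, 34 rose and 6 fell in juvenile plants and 35 rose and 4 fell in adult plants.

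The calls were largely shared by the ages. A rise was called at both ages for 31 members and a fall for 4, which are 52.5% and 6.78% of the family, against 12.4% and 14.8% of all genes. Another 3 members were called in juvenile plants only (WRKY8, WRKY16 and WRKY62) and 4 in adult plants only (WRKY21, WRKY23, WRKY58 and WRKY65), shares of 5.08% and 6.78% against 7% and 6.36% of all genes. Of these 7, 5 (WRKY8, WRKY16, WRKY21, WRKY58 and WRKY65) were called at the other age too under at least 1 of the alternative settings, and WRKY23 and WRKY62 under none. The remaining 17 (28.8%, against 59.4% of all genes) were called at neither age, with differences between -0.62 and 0.47 in juvenile plants and between -0.66 and 0.42 in adult plants. No member had called changes of opposite sign, against 0.0467% of all genes, and 35 members (59.3%) had calls of the same sign at both ages, against 27.2%. The arrays of submerged juvenile plants did not overlap those of their controls for 54 of 59 members, 42 higher and 12 lower, and those of submerged adult plants did not overlap theirs for 51, 40 higher and 11 lower. Over all genes 67.3% did not overlap in juvenile plants, 29.6% higher and 37.7% lower, and 66.2% in adult plants, 30.6% higher and 35.6% lower, so separation of 2 arrays from 2 was common. Of the 59, 28 fell among the dimmest 50% of loci by mean value over the arrays, where a change may be compressed.

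**Figure D1:**
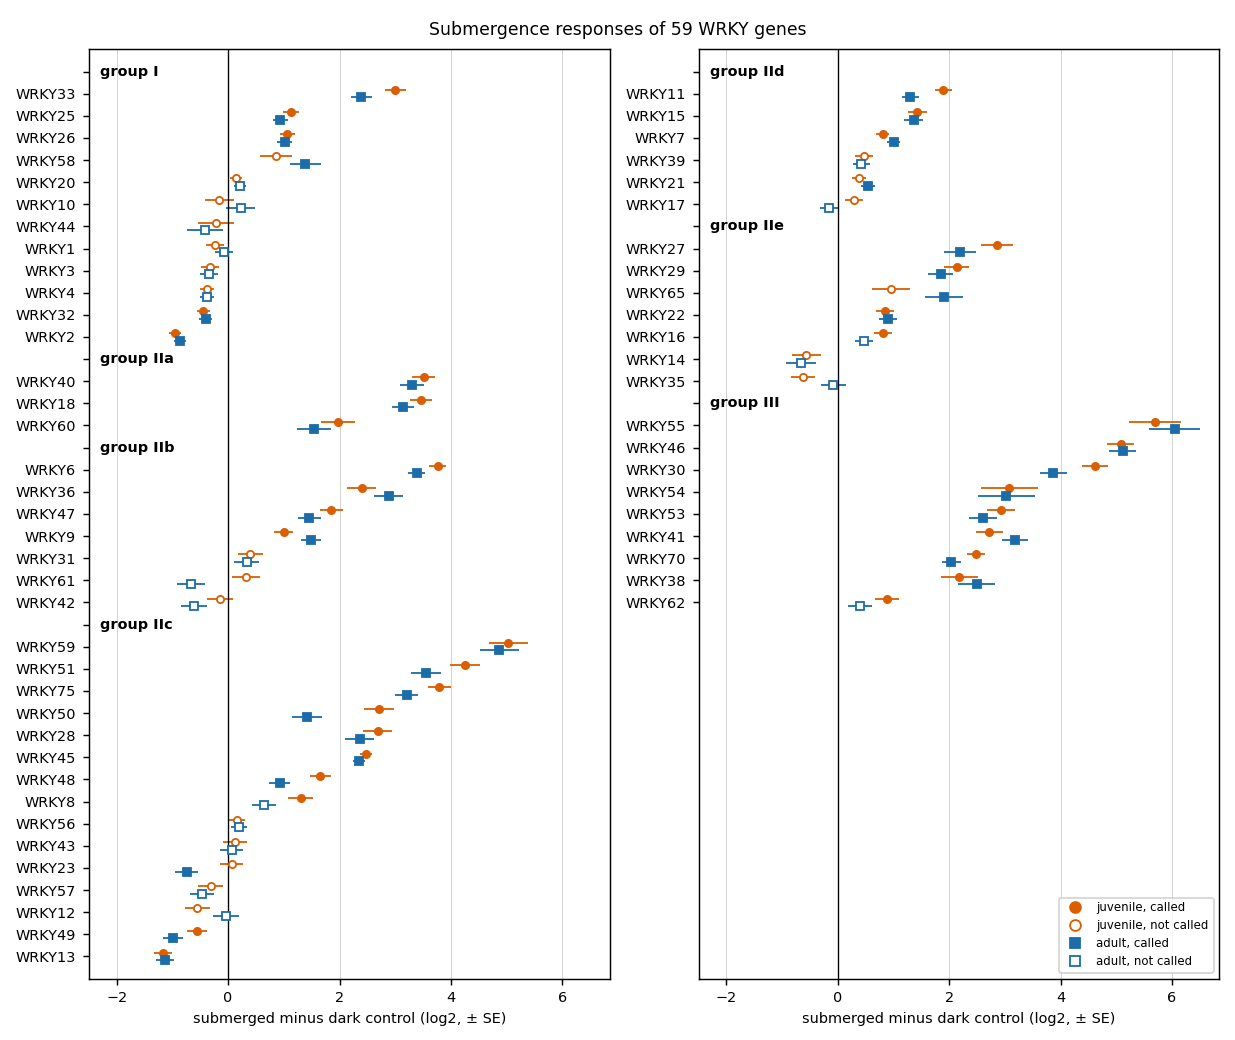
Submerged minus dark control difference (log2, bars ± SE of the limma fit) for all 59 WRKY genes, ordered within WRKY groups by the juvenile response, with circles for juvenile and squares for adult plants and filled symbols for adjusted p under 0.05. Group III and group IIa lie to the right of 0 throughout. Group I spreads around 0, apart from WRKY33, WRKY25, WRKY26 and WRKY58 to the right and WRKY2 to the left.

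Group III, which holds factors of salicylic acid responses and leaf senescence, moved as a block. All 9 members rose in juvenile plants and 8 of 9 in adult plants, with median changes of 2.92 and 3.02. Beside this and the group counts below, 15.5% of all genes were called as higher in juvenile and 14.6% in adult plants. The shares called as lower were 18.8% and 18.9%. The largest rise in the family was that of WRKY55 (AT2G40740), which is known to promote leaf senescence and salicylic acid accumulation. It measured 10.69 and 9.57 on submerged juvenile arrays against 4.73 and 4.15 on their controls, a 51.7-fold difference (5.69, SE 0.46, limma adjusted p = 0.000128). In adult plants it measured 10.67 and 10.37 under water against 5.01 and 3.94 in dark air, a 66.1-fold difference (6.05, SE 0.46, limma adjusted p = 0.000114). The lowest submerged array lay above the highest control array by several log2 units at both ages, although the 2 arrays of submerged juvenile plants and those of adult controls differed more than 2-fold.

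WRKY54 (AT2G40750), the direct neighbour of WRKY55 in the RefSeq gene order, is known with WRKY70 as a negative regulator of senescence. It measured 6.73 and 5.51 on submerged juvenile arrays against 3.42 and 2.67 on juvenile controls, and 6.25 and 6.64 on submerged adult arrays against 2.85 and 3.99 on adult controls. Its rises of 3.08 and 3.02 had an SE of 0.51, the widest among the rises described here, and limma adjusted p-values of 0.00331 and 0.00369. WRKY70 (AT3G56400), which links salicylic acid to jasmonic acid signalling, was more even between arrays. Submerged juvenile arrays gave 10.74 and 10.44 against 8.28 and 7.93 in juvenile controls, and submerged adult arrays gave 10.67 and 10.49 against 8.55 and 8.53 in adult controls, 5.58-fold and 4.11-fold rises with limma adjusted p-values of 5.8e-05 and 0.000151. WRKY53 (AT4G23810), a promoter of leaf senescence, rose by 2.92 in juvenile and 2.61 in adult plants (SE 0.25). It measured 9.66 on both submerged juvenile arrays against 6.95 and 6.53 on controls, and 10.16 and 9.48 on submerged adult arrays against 7.35 and 7.07.

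WRKY46 (AT2G46400), a salicylic acid responsive gene that also acts in drought responses, had the second-largest rise in the family at each age. It measured 8.20 and 7.63 on submerged juvenile arrays against 2.56 and 3.11 on controls, and 8.14 and 8.22 on submerged adult arrays against 3.01 and 3.13. These are 33.8-fold and 34.6-fold rises (5.08 and 5.11, SE 0.24, limma adjusted p = 1.7e-05 and 2.0e-05). WRKY30 (AT5G24110), an early stress-responsive gene whose product binds WRKY53, WRKY54 and WRKY70, measured 9.36 and 9.08 on submerged juvenile arrays against 4.78 and 4.43 on controls. In adult plants it measured 9.99 and 9.61 under water against 5.66 and 6.20 in dark air, and the rises were 4.61 and 3.87 (SE 0.24). WRKY41, known from responses to bacterial flagellin and from seed dormancy, measured 7.08 and 6.60 on submerged juvenile arrays against 3.84 and 4.40 on controls. On submerged adult arrays it measured 7.57 and 7.32 against 4.37 and 4.15, and the rises were 2.72 and 3.18.

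WRKY38 and WRKY62 are known as paired negative regulators of basal defence that salicylic acid induces. WRKY38 measured 5.68 and 6.56 on submerged juvenile arrays against 3.99 and 3.88 on controls, and 5.88 and 6.28 on submerged adult arrays against 3.27 and 3.91, rises of 2.18 and 2.49. WRKY62 measured 4.01 and 3.52 under water against 2.96 and 2.79 in juvenile plants, a rise of 0.89 (limma adjusted p = 0.0172). In adult plants it measured 3.22 and 3.70 against 3.05 and 3.07, a difference of 0.40 that was not called (adjusted p = 0.209). The juvenile call of WRKY62 was lost without submerged juvenile replicate 1 (0.65), juvenile control replicate 1 (0.98) or juvenile control replicate 2 (0.80).

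Group IIa comprises WRKY18, WRKY40 and WRKY60, partly redundant factors that restrain basal immunity and act in abscisic acid signalling, and all 3 rose at both ages. WRKY40 (AT1G80840) measured 11.35 and 10.94 on submerged juvenile arrays against 7.91 and 7.36 on controls, and 11.02 and 11.11 on submerged adult arrays against 7.73 and 7.79. Its rises were 11.4-fold and 9.89-fold (3.51 and 3.31, SE 0.21, limma adjusted p = 4.1e-05 and 5.8e-05). WRKY18 (AT4G31800) measured 9.20 and 8.56 on submerged juvenile arrays against 5.44 and 5.39 on controls, and 8.92 and 8.86 on submerged adult arrays against 5.70 and 5.81, rises of 3.46 and 3.14 (SE 0.20). For both genes the submerged and control arrays were far apart and the control arrays of the 2 ages lay close together. WRKY60 (AT2G25000) rose less, by 1.98 and 1.54 (SE 0.31, limma adjusted p = 0.00241 and 0.00761). It measured 5.66 and 6.14 on submerged juvenile arrays against 4.05 and 3.79 on controls, and 6.99 and 6.07 on submerged adult arrays against 4.91 and 5.07.

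**Figure D2:**
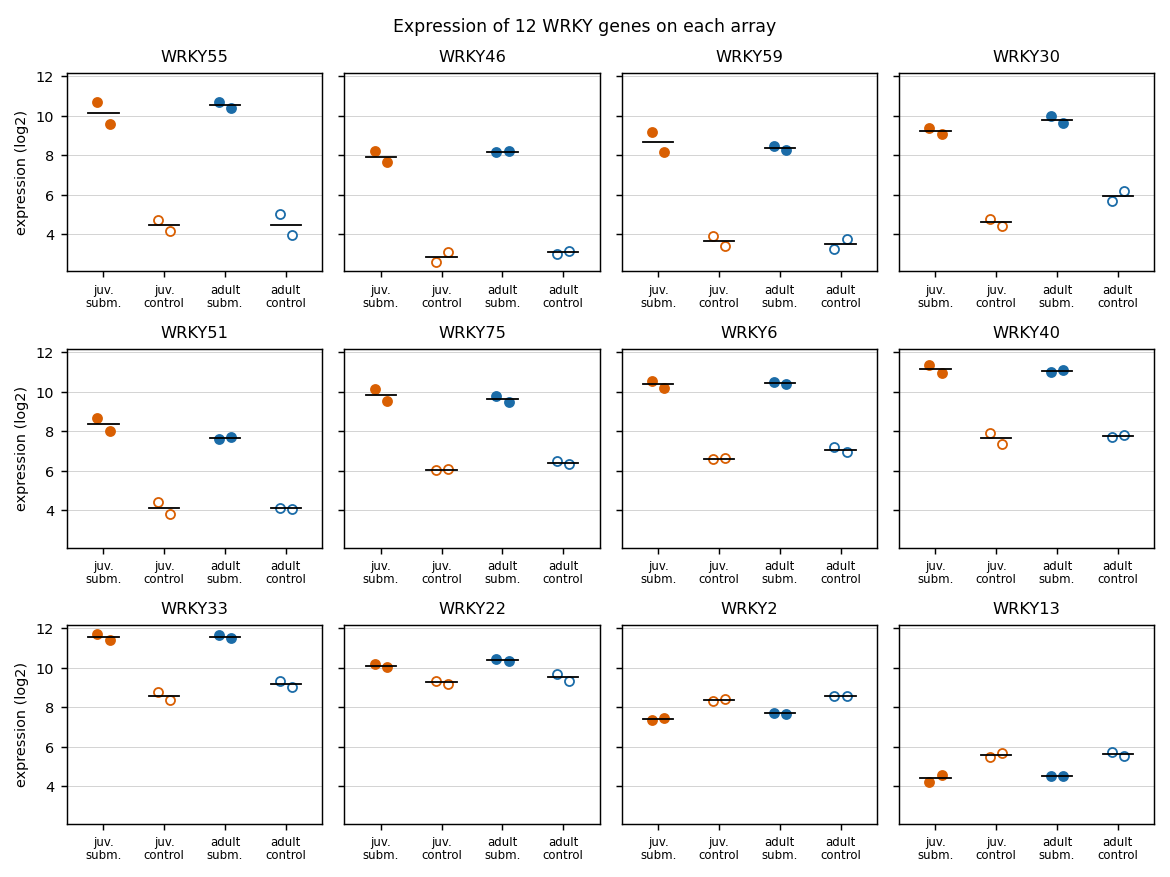
Expression (log2) of 12 WRKY genes on each array, with filled points for submerged and open points for dark control arrays, orange for juvenile and blue for adult plants, and a line at the mean of each pair. Submerged points lie above control points in the first 10 panels, from WRKY55 to WRKY22, and below them for WRKY2 and WRKY13.

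Group IIc, the most numerous here with 15 members, divided into strong risers and members that fell or were not called. In juvenile plants 8 rose, 2 fell and 5 were not called, and in adult plants 7 rose, 3 fell and 5 were not called. WRKY59 (AT2G21900) had the third-largest rise of the family at each age, with 9.19 and 8.17 on submerged juvenile arrays against 3.91 and 3.39 on controls, and 8.45 and 8.28 on submerged adult arrays against 3.25 and 3.76. These are 32.7-fold and 29.2-fold rises (5.03 and 4.87, SE 0.35, limma adjusted p = 6.8e-05 and 9.3e-05). WRKY50 and WRKY51, known to mediate the repression of jasmonic acid responses by salicylic acid, also rose. WRKY51 (AT5G64810) measured 8.68 and 8.02 on submerged juvenile arrays against 4.43 and 3.78 on controls, and 7.61 and 7.68 on submerged adult arrays against 4.12 and 4.05, rises of 4.25 and 3.56 (SE 0.27). WRKY50 measured 9.14 and 8.79 on submerged juvenile arrays against 6.16 and 6.36 on controls, a rise of 2.71. In adult plants WRKY50 measured 8.96 and 8.73 under water against 7.02 and 7.84 in dark air, a rise of 1.41 (SE 0.27 at both ages), and the submerged arrays of the 2 ages overlapped while the adult controls lay above the juvenile ones.

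WRKY75 and WRKY45 are known as activators of phosphate uptake genes and as promoters of leaf senescence. WRKY75 (AT5G13080) measured 10.13 and 9.54 on submerged juvenile arrays against 6.02 and 6.06 on controls, and 9.76 and 9.48 on submerged adult arrays against 6.48 and 6.33. It rose 13.9-fold and 9.25-fold (3.79 and 3.21, SE 0.21, limma adjusted p = 2.7e-05 and 5.8e-05). WRKY45 (AT3G01970) was the most even between arrays, with 12.01 and 12.05 on submerged juvenile arrays against 9.53 and 9.58 on controls, and 12.09 and 12.10 on submerged adult arrays against 9.72 and 9.77. Its rises of 2.47 and 2.35 had an SE of 0.10. Other risers of group IIc were WRKY28, which activates salicylic acid synthesis (2.69 and 2.36), and WRKY48, a negative regulator of resistance to Pseudomonas (1.65 and 0.93). The adult call of WRKY48 was lost without adult control replicate 2 (0.84). WRKY8, which acts in salt stress, rose by 1.31 in juvenile plants, and its adult difference of 0.64 was not called (limma adjusted p = 0.0647).

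In group IIb, 4 of 7 members rose at each age and the other 3 were not called. WRKY6 (AT1G62300), a senescence-associated factor that represses the phosphate exporter gene PHO1, had the largest rise of this group. It measured 10.54 and 10.20 on submerged juvenile arrays against 6.58 and 6.62 on controls, and 10.51 and 10.40 on submerged adult arrays against 7.18 and 6.96. These are 13.6-fold and 10.5-fold rises (3.77 and 3.39, SE 0.15, limma adjusted p = 1.0e-05 and 1.8e-05). WRKY36 rose by 2.40 and 2.88, WRKY47 by 1.85 and 1.45, and WRKY9 by 1.00 and 1.49 in juvenile and adult plants. WRKY42 (AT4G04450), which also represses PHO1, measured 4.58 and 5.27 on submerged juvenile arrays against 4.90 and 5.23 on controls, and 4.05 and 4.19 on submerged adult arrays against 4.79 and 4.66. Its differences of -0.14 and -0.61 were not called (limma adjusted p = 0.698 and 0.0890), so WRKY6 and WRKY42 had unlike values despite their shared target.

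Group I had the smallest median absolute change of the groups, 0.41 at each age, against 0.33 over all genes at each age. Its changes went both ways, with a signed median of -0.19 in juvenile plants and 0.07 in adult plants. Of its 12 members, 3 rose and 2 fell in juvenile plants, and 4 rose and 2 fell in adult plants. Over all genes 34.2% were called in juvenile and 33.6% in adult plants. WRKY33 (AT2G38470), a MAP kinase substrate required for camalexin synthesis and resistance to necrotrophic fungi, stood above the others. It measured 11.72 and 11.43 on submerged juvenile arrays against 8.77 and 8.38 on controls, and 11.65 and 11.48 on submerged adult arrays against 9.33 and 9.02. The rises were 8.00-fold and 5.25-fold (3.00 and 2.39, SE 0.19, limma adjusted p = 4.8e-05 and 0.000139), and submerged arrays of the 2 ages overlapped. WRKY25 and WRKY26, known with WRKY33 from heat tolerance, rose by 1.12 and 1.06 in juvenile plants and by 0.94 and 1.01 in adult plants. WRKY58 was called in adult plants only, with 5.27 and 5.60 under water against 3.97 and 4.12 in dark air, a rise of 1.39 (limma adjusted p = 0.00890). That call was lost without submerged adult replicate 2 (1.22) or adult control replicate 1 (1.32). In juvenile plants WRKY58 measured 5.26 and 5.03 against 3.83 and 4.73, a difference of 0.87 with an adjusted p of 0.0550.

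Group IIe holds WRKY22 and WRKY29, which act downstream of the MAP kinase cascade of flagellin perception, and 4 of its 7 members rose at each age. WRKY22 (AT4G01250), which is also known from dark-induced senescence and from immunity after submergence, measured 10.18 and 10.01 on submerged juvenile arrays against 9.34 and 9.17 on controls. In adult plants it measured 10.47 and 10.34 under water against 9.70 and 9.32 in dark air. Its rises were 1.79-fold and 1.86-fold (0.84 and 0.89, SE 0.16, limma adjusted p = 0.00643 and 0.00517), below the family median at both ages. WRKY29 (AT4G23550) measured 7.57 and 7.40 on submerged juvenile arrays against 5.39 and 5.30 on controls, and 6.80 and 6.77 on submerged adult arrays against 4.57 and 5.30, rises of 2.14 and 1.85 (SE 0.22). WRKY27, known from the response to bacterial wilt, rose by 2.85 and 2.20. WRKY16, whose protein joins a TIR-NB-LRR immune receptor to a WRKY domain, rose by 0.82 in juvenile plants, a call lost without juvenile control replicate 2 (0.67), and differed by 0.46 in adult plants (limma adjusted p = 0.0650).

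WRKY65 was called in adult plants only among the 4 risers of group IIe there. It measured 6.48 and 6.41 on submerged adult arrays against 4.98 and 4.09 on controls, a rise of 1.90 (SE 0.34, limma adjusted p = 0.00486). On submerged juvenile arrays it measured 5.76 and 6.57 against 5.31 and 5.12, a difference of 0.95 with an adjusted p of 0.0719. In group IId, the calmodulin-binding WRKY factors, WRKY11, WRKY15 and WRKY7 rose at both ages, by 1.89, 1.43 and 0.81 in juvenile plants and by 1.30, 1.36 and 1.00 in adult plants. WRKY17, known with WRKY11 as a negative regulator of basal resistance, did not pass the test at either age (0.29 and -0.15). WRKY21 was called in adult plants (0.55, limma adjusted p = 0.0140), and that call was lost without submerged adult replicate 1 (0.48), adult control replicate 1 (0.55) or adult control replicate 2 (0.55).

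The falls were few and small beside the rises. WRKY13 (AT4G39410), a regulator of stem lignification and flowering time, had the largest at both ages. It measured 4.20 and 4.58 on submerged juvenile arrays against 5.46 and 5.67 on controls, and 4.49 and 4.50 on submerged adult arrays against 5.71 and 5.53. It fell by 1.17 and 1.13 on the log2 scale (SE 0.16, limma adjusted p = 0.00140 and 0.00177). WRKY12 (AT2G44745), which acts opposite to WRKY13 in flowering time, measured 3.69 and 3.53 on submerged juvenile arrays against 3.98 and 4.33 on controls, and 4.15 and 3.54 on submerged adult arrays against 3.78 and 3.98. Its differences of -0.55 and -0.04 were not called (adjusted p = 0.106 and 0.925). WRKY2 (AT5G56270), which acts in zygote polarity and seed germination, measured 7.35 and 7.43 on submerged juvenile arrays against 8.29 and 8.39 on controls, and 7.72 and 7.67 on submerged adult arrays against 8.58 and 8.55. It fell by 0.95 and 0.87 (SE 0.11, limma adjusted p = 0.000600 and 0.000958), and its 2 arrays within each group lay closer together than the 2 treatments at both ages.

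The remaining falls were smaller, and several of their calls depended on single arrays. WRKY49 measured 4.09 and 3.95 on submerged juvenile arrays against 4.46 and 4.69 on controls, a fall of 0.56 (limma adjusted p = 0.0496), and 4.18 and 3.74 on submerged adult arrays against 4.84 and 5.04, where it fell by 0.98 (adjusted p = 0.00521). Its juvenile call was lost without any 1 of the 4 juvenile arrays, with values of -0.63 without submerged replicate 1, -0.49 without submerged replicate 2, -0.67 without control replicate 1 and -0.44 without control replicate 2. The same call was lost without either adult control array, with the trended, robust prior (adjusted p = 0.102) and with the replicate number as a block (adjusted p = 0.0759), at an unmoved difference of -0.56. WRKY32 measured 9.16 and 9.23 on submerged juvenile arrays against 9.60 and 9.68 on controls, and 9.33 and 9.47 on submerged adult arrays against 9.87 and 9.73. It fell by 0.45 and 0.40 (limma adjusted p = 0.0241 and 0.0370). The juvenile call of WRKY32 was lost without any of the 4 juvenile arrays (-0.49 to -0.41). Its adult call was lost without any of the 4 adult arrays (-0.47 to -0.33), without either juvenile control array (-0.40), after median centring (-0.37, adjusted p = 0.0550) and with the replicate number as a block (adjusted p = 0.0580). WRKY23, an auxin-responsive gene of root development, was called in adult plants only, with 5.61 and 5.94 under water against 6.41 and 6.63 in dark air, a fall of 0.75 (adjusted p = 0.0261). That call was lost without submerged adult replicate 1 (-0.58), adult control replicate 1 (-0.86) or adult control replicate 2 (-0.64). In juvenile plants WRKY23 measured 5.77 and 6.15 against 6.06 and 5.73, and the groups overlapped.

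Among the 17 members called at neither age were developmental factors such as WRKY10, which acts in the endosperm (-0.16 and 0.23), and WRKY44, which acts in trichomes and the seed coat (-0.22 and -0.41). WRKY3 and WRKY4, known from resistance to necrotrophs, differed by -0.32 and -0.38 in juvenile plants and by -0.35 and -0.37 in adult plants. Their limma adjusted p-values lay between 0.0581 and 0.185. WRKY43 and WRKY56 stayed between 2.50 and 3.07 on all 8 arrays, near the low end of the table, and differed by 0.12 and 0.16 in juvenile plants and by 0.06 and 0.20 in adult plants.

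Genes known to act with WRKY factors were described from lists of upstream kinases, VQ partners and reported targets. These lists were written with earlier results of these data known, so their counts are not an independent test. Among all genes, 15.5% in juvenile and 14.6% in adult plants were called as higher, and 18.8% and 18.9% as lower. All 10 genes of the MAP kinase cascades rose in juvenile plants and 9 of 10 in adult plants, with a median change of 0.90 and 0.91. MPK11, a close relative of MPK4, was far above the rest. It measured 8.48 and 7.67 on submerged juvenile arrays against 3.90 and 3.13 on controls, and 8.80 and 8.41 on submerged adult arrays against 4.47 and 3.67, 23.6-fold and 23.1-fold rises (limma adjusted p = 0.000172 and 0.000193). MKK4 rose by 1.28 and 1.34, MKK2 by 1.20 and 0.94 and MEKK1 by 1.04 and 1.05. Without juvenile control replicate 1, 6 of the 10 were called in juvenile plants.

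Of 9 VQ genes, 8 rose and 1 fell at each age, with medians of 1.36 and 1.44. The shares among all genes were 15.5% and 14.6% higher and 18.8% and 18.9% lower. VQ29, known from seedling light responses, measured 8.59 and 7.39 on submerged juvenile arrays against 2.55 and 2.65 on controls, and 7.37 and 7.71 on submerged adult arrays against 3.13 and 2.54. Those are rises of 5.40 and 4.71 (SE 0.39). AT1G78410 rose by 3.87 and 3.40, and SIB1, whose product binds WRKY33, by 3.15 and 2.37. The gene that fell was IKU1, a seed size regulator that partners WRKY10 and is named here because it was the single fall. It fell by 0.97 in juvenile plants and by 0.62 in adult plants, and the adult call was lost without submerged adult replicate 2 (-0.48), adult control replicate 1 (-0.64) or adult control replicate 2 (-0.59).

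Of 18 reported WRKY targets, 11 rose at each age, and 1 fell in juvenile plants and 0 in adult plants, with medians of 1.73 and 1.35. Beside these counts, 15.5% and 14.6% of all genes were called as higher and 18.8% and 18.9% as lower. PAD3, the last enzyme of camalexin synthesis and a WRKY33 target, measured 9.94 and 9.29 on submerged juvenile arrays against 3.72 and 3.49 on controls, and 9.52 and 9.56 on submerged adult arrays against 5.06 and 5.53. Its rises were 64.6-fold and 19.0-fold (6.01 and 4.25, SE 0.25, limma adjusted p = 1.1e-05 and 4.3e-05). CYP71A13, an earlier enzyme of that pathway, rose by 5.24 and 2.41, AOX1A, the alternative oxidase, by 5.05 and 3.28, and FRK1, a kinase gene induced downstream of WRKY22 and WRKY29, by 4.70 and 3.85. RAP2.2, a group VII ERF of the low-oxygen response that WRKY33 and WRKY12 are reported to activate, rose by 1.58 and 1.52 and was singled out after its values were seen. SAG12, a senescence marker also named after its values were seen, was not called and differed by 0.03 in juvenile and 0.18 in adult plants (limma adjusted p = 0.930 and 0.512). It measured between 2.60 and 3.14 on all 8 arrays, near the low end of the table, where a change may be compressed. The single fall was that of PHO1, by 0.49 in juvenile plants (limma adjusted p = 0.0413). That call was lost in 6 of the 8 fits that left out 1 array, those without any juvenile array or either adult control array (-0.58 to -0.39), and PHO1 had a difference of -0.0034 in adult plants. The salicylic acid markers PR1 and PR5 rose at both ages, by 4.16 and 3.36 in juvenile and 2.26 and 1.90 in adult plants. PR2 was not called in juvenile plants (0.25, limma adjusted p = 0.475). It was called in adult plants (0.92), and that call was lost without submerged adult replicate 1 (0.58) or adult control replicate 1 (0.76).

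**Figure D3:**
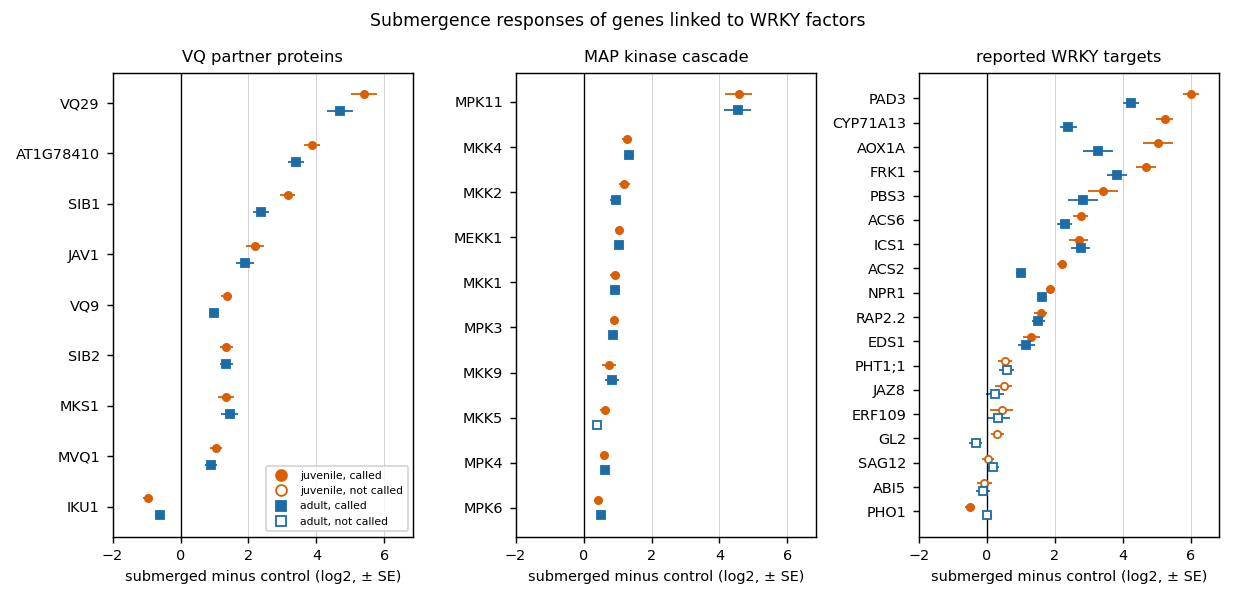
Submerged minus dark control difference (log2, bars ± SE) for VQ partner genes, MAP kinase cascade genes and reported WRKY targets, with circles for juvenile and squares for adult plants and filled symbols for adjusted p under 0.05. All MAP kinase cascade genes lie right of 0, with MPK11 far from the others, and IKU1 is the single VQ gene left of 0.

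The next comparison asked whether WRKY genes differed between adult and juvenile plants in dark air. With limma 0 of 59 were called, against 0.0539% of all genes, and 14 reached an unadjusted p under 0.05, which is 23.7% of members against 10.1% of all genes. The arrays of adult controls did not overlap those of juvenile controls for 37 members (62.7%, against 46.1% of all genes). Of these, 27 were higher and 10 lower in adult plants, or 45.8% and 16.9% of members against 23.8% and 22.3% of all genes. The median difference was 0.19, where that over all genes was 0.00, and 38 of 59 were positive (0.13 and 35 of 59 after median centring). WRKY30 had the largest, with 5.66 and 6.20 in adult controls against 4.78 and 4.43 in juvenile controls, a difference of 1.33 (SE 0.24, adjusted p = 0.130). With a robust prior that follows the intensity trend, WRKY30 was the 1 member called (adjusted p = 0.0395). That setting called 149 of all 27826 loci in this contrast, against 15 with the default prior. WRKY50 was 1.17 higher in adult controls (adjusted p = 0.223) and WRKY60 1.07 higher (adjusted p = 0.309), and for both the groups did not overlap. The largest negative differences were those of WRKY65 (-0.68), WRKY29 (-0.41) and WRKY38 (-0.35), with limma adjusted p-values between 0.583 and 0.804.

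Beside these values, the salicylic acid marker PR1 measured 5.91 and 6.54 in adult controls against 3.09 and 3.40 in juvenile controls (2.98, limma adjusted p = 0.0420). PR5 measured 7.55 and 7.86 against 5.76 and 6.09 (1.78, limma adjusted p = 0.115). PR2 differed by -0.01, with values between 2.59 and 2.91 on the control arrays, near the low end of the table, where a difference may be compressed. The call of PR1 was lost in each of the 8 fits that left out 1 array (2.66 to 3.29, adjusted p between 0.0721 and 0.210) and with the replicate number as a block (adjusted p = 0.0598). The targets PAD3 and FRK1 were 1.69 and 1.41 higher in adult controls (adjusted p = 0.0874 and 0.186). The part of salicylic acid signalling in the WRKY differences was not tested.

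Between submerged adult and submerged juvenile plants, limma again called 0 of 59 members, against 0.126% of all genes, and 8 reached an unadjusted p under 0.05 (13.6% of members, 11.8% of all genes). The groups did not overlap for 18 members (30.5%, against 39.1% of all genes), 13 higher and 5 lower in adult plants, or 22.0% and 8.47%, against 20.7% and 18.3% of all genes. The median difference was 0.07, with 37 of 59 positive. WRKY60 (0.63), WRKY41 (0.60) and WRKY30 (0.58) had the largest positive differences, and WRKY42 (-0.81), WRKY51 (-0.71) and WRKY29 (-0.70) the largest negative ones. Their limma adjusted p-values lay between 0.261 and 0.482. Of the reported targets, ACS2, an ethylene synthesis gene, was called, with 4.01 and 4.29 in submerged adult plants against 5.50 and 5.34 in submerged juvenile plants (-1.27, limma adjusted p = 0.0459). The ACS2 call was lost in each of the 8 fits that left out 1 array (-1.41 to -1.13), and after quantile normalization (-1.20), median centring (-1.16) or a replicate block (adjusted p = 0.0883).

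**Figure D4:**
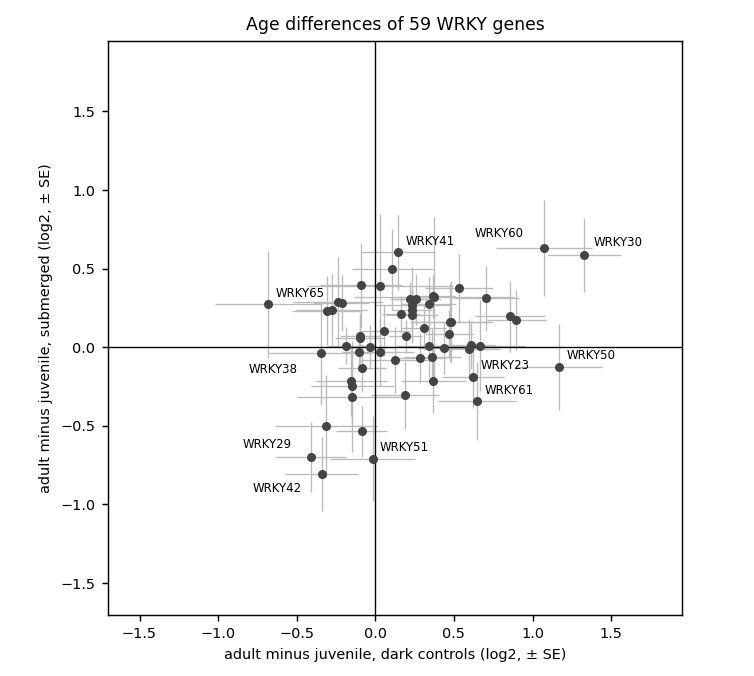
Adult minus juvenile difference (log2, bars ± SE) of the 59 WRKY genes in dark controls on the horizontal axis and in submerged plants on the vertical axis, 1 point per gene. More points lie right of 0 than left of it on the horizontal axis, 38 against 21, and WRKY30 and WRKY60 lie to the upper right, while none of the differences passed the test.

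Whether the submergence response itself depended on age was tested as the adult response minus the juvenile response, which uses all 4 groups. With limma 0 of 59 members were called, as was 0% of all genes, and 5 members reached an unadjusted p under 0.05 (8.47%, against 7.3% of all genes). The smallest adjusted p among members was that of WRKY50, whose response was 1.29 smaller in adult plants (SE 0.39, 95% interval -2.21 to -0.38, adjusted p = 0.554). WRKY61 (-0.99) and WRKY23 (-0.81) followed, with adjusted p-values of 0.614 and 0.610. The largest positive differences were those of WRKY65 (0.96, 95% interval -0.18 to 2.09), WRKY35 (0.54) and WRKY58 (0.52). WRKY35 measured 3.11 and 2.98 on submerged adult arrays against 3.28 and 2.98 on adult controls, and 2.69 and 2.93 on submerged juvenile arrays against 3.13 and 3.74 on juvenile controls. The 8 members with the largest rises in juvenile plants were also the 8 with the largest in adult plants, and their interactions ranged from -0.74 for WRKY30 to 0.36 for WRKY55. The median interaction of the family was -0.12, with 38 of 59 negative, and it changed sign to 0.04, with 28 of 59 negative, after arrays were centred on their medians. On the deposited values, the absolute response was larger in juvenile plants for 37 of 59 members, against 51.2% of all genes. This count was not repeated on centred arrays. Among the reported targets, CYP71A13 had an adult minus juvenile response of -2.83 and PAD3 one of -1.77 (limma adjusted p = 0.190 and 0.318). The median absolute interaction of the 59 members was 0.33, beside a median SE of 0.30.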

How the data were processed

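The deposited table gave log2 expression values for 27826 loci on 8 arrays. The authors made these log2 values with RMA, which the submitters' processing notes name beside limma, without versions. The array model, the assignment of probes to loci and the genome build are not given in the sources used here, so no coordinates are given. Probes shared by near-identical genes could mix their signals, and no background was available, so no gene could be called undetected. Values ranged from 1.86 to 13.05, and 0 columns belonged to no sample. Gene symbols were matched by locus code to a RefSeq table (TAIR10.1), which held all 59 members.

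From these values, limma 3.58.1 in R 4.3.3 was fitted with 1 mean per group over all 8 arrays (lmFit, eBayes with the default prior), leaving 4 residual and 2.99 prior degrees of freedom per gene. The 5 contrasts were tested two-sided, with Benjamini-Hochberg adjustment over all 27826 loci and a threshold of 0.05. An exact permutation test of 2 against 2 arrays has 0.333 as its smallest p, so calls depend on limma's pooling of variances over loci. Precision is limited by the number of arrays, and the labels give no batch. Alternatives were another prior, quantile normalization, median centring, removal of the dimmest 50% of loci, a replicate block, the 4 arrays of a contrast alone, a threshold of 0.01 and omission of each array. Plots used matplotlib 3.10.9 (Python 3.11.15).

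The members, the 4 gene lists (10 MAP kinase cascade genes, 9 VQ genes, 18 reported targets and 3 PR genes, all measured) and the WRKY groups, taken from general knowledge, were chosen with earlier results of these data known. Full values are given for the 8 largest called rises and falls of each submergence response, for the 3 largest differences each way in the other contrasts and for 16 members with textbook roles. Listed genes are named in the submergence responses where they are among the 3 largest changes of their list. In the other contrasts only some of the largest changes of the lists are given. Other genes and members named singly were chosen after their values were seen.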

Additional observations from a re-analysis of the deposited data

Results flagged for a closer look

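WRKY61 and GL2, a reported target of WRKY44, drew attention because both submerged arrays lay above both controls in juvenile plants and below both in adult plants. WRKY61 measured 4.31 and 4.05 on submerged juvenile arrays against 3.80 and 3.91 on juvenile controls, and 3.45 and 4.24 on submerged adult arrays against 4.55 and 4.45 on adult controls. The adult minus juvenile response of WRKY61 was -0.99 (SE 0.35), and its limma adjusted p was 0.614. GL2, a regulator of trichomes, measured 6.99 and 7.22 on submerged juvenile arrays against 6.69 and 6.90 on juvenile controls, and 6.39 and 6.90 on submerged adult arrays against 7.00 and 6.95 on adult controls. Its adult minus juvenile response was -0.63 (SE 0.27, limma adjusted p = 0.690). Over all loci 2.55% showed such opposite, non-overlapping directions, and of the 59 WRKY genes 1 did.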

How the results depend on the processing

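The counts of WRKY genes called for submergence stayed within 1.5 times of the reported 38 in juvenile and 39 in adult plants under every alternative run. They lay between 35 and 40 and between 35 and 42 when 1 array was left out, and between 27 and 41 and between 27 and 40 otherwise. The lowest, 27 at each age, came from the fit without the dimmest 50% of loci, which held 31 of the 59 members. In the age contrasts and the interaction 0 members were called under every alternative, except 1, WRKY30, in dark controls with the trended, robust prior. That prior called 149 of all loci in dark controls, against 15 in the main fit. With a threshold of 0.01, 3 calls were lost in juvenile plants (WRKY32, WRKY49 and WRKY62) and 3 in adult plants (WRKY21, WRKY23 and WRKY32), and with only the 4 arrays of a contrast 0 and 1 (WRKY32). Under the other alternatives, of 972 values of called members in the submergence responses, 939 kept direction and call, 33 lost the call and 0 reversed. Those 33 belong to WRKY16, WRKY21, WRKY23, WRKY32, WRKY48, WRKY49, WRKY58 and WRKY62. Over all 5 contrasts, 177 of 2723 member values that were not called changed sign under those same alternatives. Most of these values belong to the age contrasts and the interaction, also for members called for submergence. The count of falls was 2 in juvenile and 3 in adult plants with a threshold of 0.01, and 3 in adult plants without the dimmest loci. The fit without the dimmest loci did not test WRKY13, WRKY23 and WRKY49, and it called WRKY4 as a further adult fall. The count of called VQ genes that rose was 3 at each age without the dimmest loci. Of the VQ genes, that fit tested only SIB2, MKS1, MVQ1 and IKU1, so the lower count is not a loss of calls among tested genes. Some alternatives that kept all arrays called more listed genes in the other contrasts. In adult against juvenile controls, up to 2 PR genes and 1 target were called as higher, against 1 and 0 in the main fit. Up to 2 targets were called as lower in submerged adult plants and 1 in the interaction, against 1 and 0.

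Arrays of the same replicate number shared no strong deviation, with correlations between -0.11 and 0.05 across genes. These values cannot tell whether the samples were paired by design. The fit with the number as a block called 37 members in juvenile and 40 in adult plants and 0 in the other 3 contrasts. With 2 arrays a group, the median SE of a WRKY gene was 0.21 for a response and 0.30 for the interaction, and dim members may have compressed changes.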
